A study of Mus musculus with 18 samples.

Results

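Replication licensing and proliferation were followed through 10 genes of the mouse liver: Mcm2, Mcm3, Mcm4, Mcm5, Mcm6 and Mcm7, the subunits of the replicative helicase, the proliferation markers Mki67 and Top2a, cyclin D1 (Ccnd1) and the cell cycle inhibitor Cdkn1a. They were chosen by name, as all probe sets that carry one of these symbols alone. A probe set is a group of short probes for 1 transcript region. This gave 10 of the 18193 genes measured and 28 of the 34945 probe sets with a single gene symbol.

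Liver total RNA came from 18 male mice of the inbred strain C57BL/6J that had reached 62 weeks of age. Each mouse had its own Affymetrix Mouse Genome 430 2.0 array, and each of 6 groups held 3 mice. From 5 weeks of age, after a week on the low-fat diet that all mice shared, free feeding was on a diet with 10% fat (low-fat, LF) or with 60% fat (high-fat, HF). Restricted mice (LF+CR and HF+CR) were given 30% fewer calories than mice eating the same diet freely, and running mice (LF+Ex and HF+Ex) ate freely and had a voluntary running wheel. All mice were housed alone. The groups allow the effects of the diet, of restriction and of running to be compared in old livers, and each intervention to be compared between the 2 diets.

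As background, the proteins Mcm2 to Mcm7 form a hexameric ring that is loaded onto replication origins in G1 phase. This loading, called licensing, readies each origin to fire once in the following S phase, and most of these genes are transcribed when E2F factors are released by the retinoblastoma protein. Cyclin D1 with its partner kinases drives that release, and Cdkn1a encodes p21, the cyclin-dependent kinase inhibitor that p53 induces. Mki67 encodes Ki-67, a nuclear protein of cycling cells, and Top2a encodes topoisomerase II alpha, which untangles sister chromosomes before mitosis. Hepatocytes of an adult liver rarely divide, but they re-enter the cycle after tissue loss or injury, and cyclin D1 rises early when they do.

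The promoters of the members are shown because they carry the letters through which these genes are known to be coupled to the cell cycle. RefSeq promoter sequences of assembly GRCm38.p6 were matched by symbol for 8 of the 10 genes (10 promoters), and the 250 bases before each start site were searched on both strands. The E2F letters TTTGGCGC, TTTCGCGC, TTTCCCGC and TTTGCCGC were found in 3 of these 8 genes, Mcm5, Mcm6 and Mcm7, and in 1.86% of 32851 promoters in the RefSeq table. In the following stretches the capitals mark those letters on either strand, with matches that overlap joined. The Mcm6 stretch lies at chr1:128359726-128359835 on the minus strand, the Mcm5 stretch at chr8:75109339-75109398 on the plus strand, and the Mcm7 stretch at chr5:138172014-138172073 on the minus strand, before the second of its listed start sites.
Mcm6: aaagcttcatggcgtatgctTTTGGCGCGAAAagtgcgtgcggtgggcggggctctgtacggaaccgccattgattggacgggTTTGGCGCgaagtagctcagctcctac
Mcm5: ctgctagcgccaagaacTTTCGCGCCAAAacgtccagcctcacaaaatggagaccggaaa
Mcm7: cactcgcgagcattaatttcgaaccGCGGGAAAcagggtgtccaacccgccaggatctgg
The Mcm6 promoter held 3 matches and the Mcm5 promoter 2, some of them on opposite strands of the same bases.

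The CCAAT box, CCAAT on either strand, is bound by the factor NF-Y and is frequent in promoters of genes that peak in G2 phase. It was found in 7 of the 8 genes, Cdkn1a being the one without it, and in 33.8% of all promoters. Top2a had 6 matches, marked by capitals in the stretch at chr11:99024230-99024429 on the minus strand.
Top2a: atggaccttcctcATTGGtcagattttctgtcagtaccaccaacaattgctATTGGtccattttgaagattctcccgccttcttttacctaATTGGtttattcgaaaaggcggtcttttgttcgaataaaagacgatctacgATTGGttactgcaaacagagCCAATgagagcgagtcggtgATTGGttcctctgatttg
The letters TTTGAA or TTCGAA, the core of the cell cycle homology region that the DREAM repressor complex binds, were found in 4 genes, Mcm2, Mcm7, Mki67 and Top2a, and in 17.1% of all promoters. The p53 half-site was found at 1 of the 2 listed Cdkn1a start sites, with 2 matches in 250 bases, and in 7.13% of all promoters. The match nearer to that start is marked at chr17:29090919-29090958 on the plus strand.
Cdkn1a: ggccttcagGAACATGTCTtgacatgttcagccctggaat
A match of letters is a description of the sequence and shows no binding in these livers.

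The deposited values were linear intensities from 31.08 to 21653.9, array means lay between 306.852 and 309.844, and precision was limited by the number of arrays. With 3 mice a group, p-values set a difference against the spread between mice, which the limma fit pools over all 6 groups and moderates. The median standard error of a log2 difference was 0.0853 between a pair of groups, and 0.121 for interactions. An array's 40th percentile, between 88.22 and 97.574, served as the limit of dim signal. Of 12 listed hepatocyte markers 10 were measured and passed it, and their summed intensity ranged from 95885 to 108208 over the 18 livers. The first principal component held 27.0% of the variance, and its extremes were LF+CR 2 at 23.6, HF 1 at 21.1 and HF+Ex 3 at 19.1. Pancreatic transcripts stood out on 4 arrays, LF 1, LF+CR 1, LF+Ex 3 and HF+Ex 1, where colipase (Clps) read 215 to 599 against 52.6 to 62.1 elsewhere. The clock difference, log2 Arntl minus log2 Dbp, ranged from -4.32 to -0.66 and differed between mice of a group. The fits of genes in group comparisons were also computed without these arrays and with the clock difference as a covariate, whereas the correlations, marker sums and ranks of livers were not.

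The tested members were 9 of the 10, since the Top2a probe set of highest mean was below the dim limit on all 18 arrays. In the limma fit, 3 members rose in LF+CR over LF+Ex (Mcm3, Mki67 and Ccnd1), 1 rose in LF+CR over LF (Ccnd1), 2 were lower in HF+CR than in LF+CR (Mcm3 and Ccnd1), and for 1 (Ccnd1) the effect of restriction differed between the diets. Of all 14201 genes tested, 4.16% were higher in LF+CR than in LF+Ex (9.31% called in either direction), 2.3% were higher in LF+CR than in LF (5.57% in either direction), and 3.31% were lower in HF+CR than in LF+CR (8.93% in either direction). The interaction of restriction and diet was called for 5.75% of genes, and was negative for 2.39%. An unadjusted p under 0.05 was reached by 5 members in LF+CR against LF, with 18.6% of all genes. In LF+CR against LF+Ex it was reached by 5, with 23.7% of all genes. In HF+CR against LF+CR there were 3, with 23.9%, and for the interaction 2, with 23.7%. No member was called for HF against LF, where 0.894% of genes were called, or for HF+CR against HF, where 6.07% were. At an unadjusted p under 0.05 each of these had 1 member, Ccnd1 for the diet and Cdkn1a for restriction on the high-fat diet, and 16.3% and 25.5% of all genes did. Running changed 0 members on either diet, and 0 had an unadjusted p under 0.05 there. That p was reached by 3.95% of all genes on the low-fat diet and by 2.45% on the high-fat diet. Over all genes, running was called for 0.00704% on the low-fat diet and for 0% on the high-fat diet. HF+CR against HF+Ex likewise gave 0 members by either count, with 2.71% of genes called and 22.4% at an unadjusted p under 0.05. Averaged over both diets, restriction gave 0 members, with 4.76% of genes called, and running gave 0, with 0% called. At an unadjusted p under 0.05 restriction had 2 members and 18.9% of all genes, and running 1 member and 3.63%. The interaction of running and diet gave 0 members by either count, with 0.00704% of genes called and 2.52% at an unadjusted p under 0.05. The comparisons of LF+CR share that group, and those against LF share the LF mice, so they are not independent of each other.

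**Figure D1:**
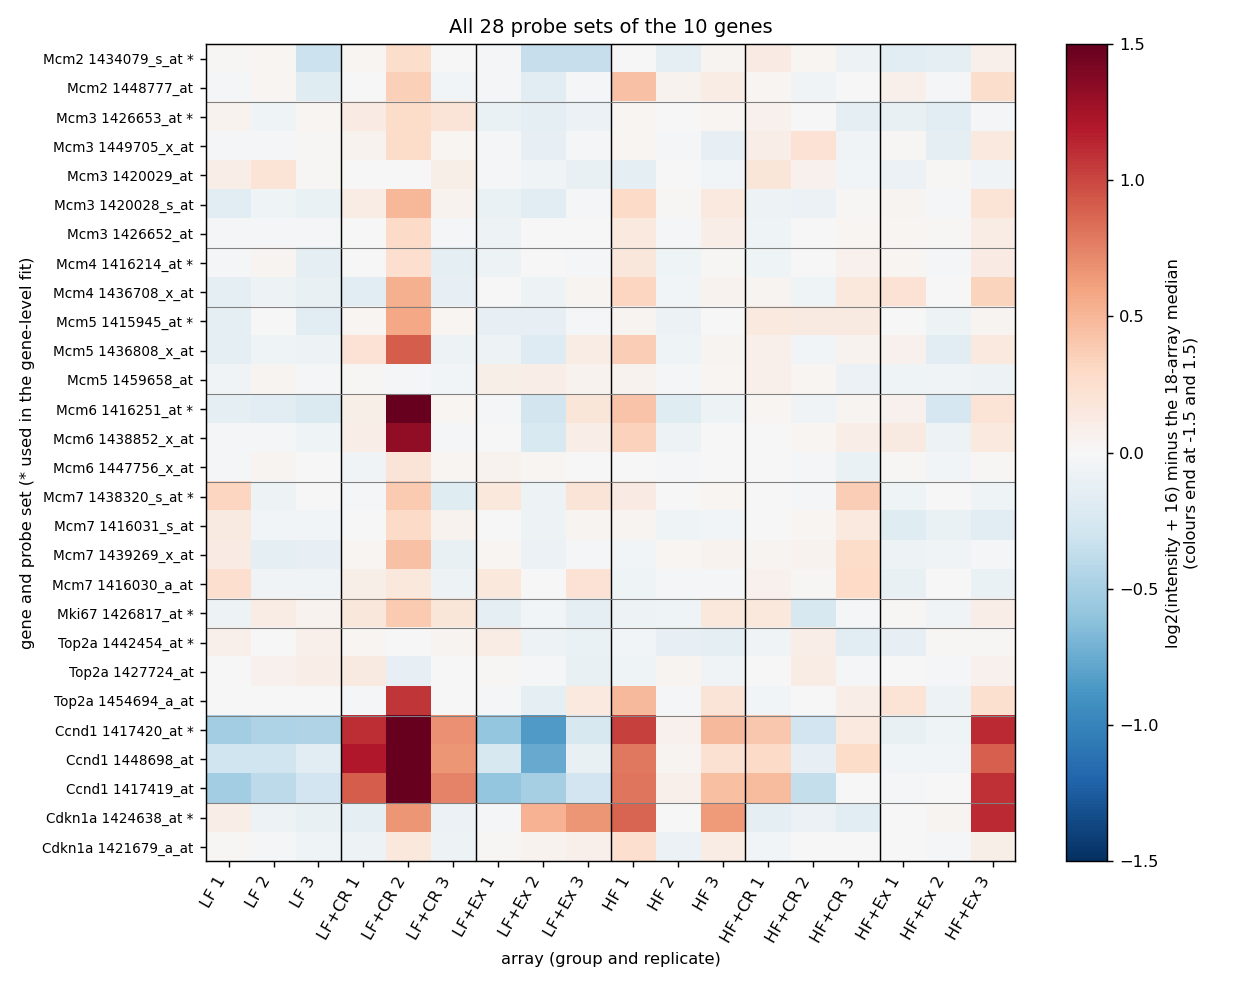
Each of the 28 rows is a probe set of a member (an asterisk marks the one used for the gene) and each of the 18 columns a liver, and colour gives log2(intensity + 16) minus the median of the 18 livers, with colours ending at -1.5 and 1.5. LF+CR 2 is the highest liver for 8 of the 10 genes at the probe set marked by an asterisk, and all 3 LF+CR livers are high at the Ccnd1 probe sets.

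Ccnd1 moved farthest. Its probe set of highest mean, 1417420_at, read 273, 283 and 286 in the 3 LF livers and 875, 2469.8 and 648 in the 3 LF+CR livers. All restricted livers were above all freely fed ones on the low-fat diet, and the restricted mice were far apart among themselves. The means were 281 ± 6.90 in LF (SD, n = 3) and 1331 ± 993 in LF+CR (SD, n = 3), a log2 difference of 1.94 (SE 0.407, 95% interval 1.07 to 2.80, limma adjusted p = 0.0102). LF+CR 2 was also the highest liver for the summed Kupffer cell markers given further on, whose part in this result was not tested. Without LF+CR 2 the log2 difference was 1.38 (limma adjusted p = 0.0328). It was 2.09 with the clock covariate (limma adjusted p = 0.00411). The call was lost, with a log2 difference of 2.10 and an adjusted p of 0.0759 by limma, when the 4 arrays with pancreatic transcripts were left out, which leaves 2 mice in each of these groups. It was also lost in the fit of LF and LF+CR alone (limma adjusted p = 0.0882), and it held in 31 of 33 other settings.

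The same 3 restricted livers stood above the running livers. Ccnd1 read 261, 214 and 334 in LF+Ex, with a mean of 269.8 ± 60.3 (SD, n = 3), and these values overlapped those of LF. LF+CR exceeded LF+Ex by 2.01 on the log2 scale (SE 0.407, limma adjusted p = 0.00517), and by 1.45 without LF+CR 2 (limma adjusted p = 0.0156). The call was lost in 1 of 33 other settings, the fit of these groups alone (limma adjusted p = 0.0552). LF+Ex and LF differed by -0.07 (SE 0.407, 95% interval -0.94 to 0.79, limma adjusted p = 1.00).

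On the high-fat diet the order was another. Ccnd1 read 823, 417 and 563 in HF, 533, 322 and 442 in HF+CR, and 368, 379.5 and 880.2 in HF+Ex. These 3 groups overlapped, and every one of their 9 livers was above every LF liver. The means were 601 ± 206 in HF, 432 ± 106 in HF+CR and 543 ± 292 in HF+Ex (SD, n = 3 each). HF exceeded LF by 1.00 on the log2 scale (SE 0.407, 95% interval 0.14 to 1.87), which did not pass over all genes (limma adjusted p = 0.243). The SE pools all 6 groups, and the SD of log2 values was 0.034 in LF, 0.48 in HF and 1.00 in LF+CR. HF+CR and HF differed by -0.44 (SE 0.407, 95% interval -1.30 to 0.43, limma adjusted p = 0.514), and HF+Ex and HF by -0.21 (SE 0.407, 95% interval -1.07 to 0.66, limma adjusted p = 1.00). In order of mean level the groups were LF+Ex, LF, HF+CR, HF+Ex, HF and LF+CR, and neighbours in that order overlapped except LF and HF+CR. LF+CR and HF overlapped because LF+CR 3, at 648, lay under HF 1, at 823.

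The effect of restriction on Ccnd1 differed between the diets. The interaction, the log2 effect on the high-fat diet minus that on the low-fat diet, was -2.38 (SE 0.576, 95% interval -3.60 to -1.15, limma adjusted p = 0.0248). Without LF+CR 2 it was -1.81 (limma adjusted p = 0.0363). The call was lost without LF 3 (-2.39, limma adjusted p = 0.0508), without HF 1 (-2.13, limma adjusted p = 0.0750), without HF+CR 2 (-2.19, limma adjusted p = 0.0626) and without the 4 arrays with pancreatic transcripts (-2.53, limma adjusted p = 0.0782). HF+CR was lower than LF+CR (log2 difference -1.37, SE 0.407, limma adjusted p = 0.0471), and this passed in 13 of 33 other settings. Without LF+CR 2 it was -0.81 (limma adjusted p = 0.195).

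The other probe sets of Ccnd1 gave the same order. In a fit of all 24481 probe sets above the dim limit, LF+CR exceeded LF by 1.74 at 1448698_at (SE 0.375, limma adjusted p = 0.0121) and by 1.81 at 1417419_at (SE 0.390, limma adjusted p = 0.0120). The first read 229.6, 230.5 and 255 in LF and 678, 1829 and 462 in LF+CR. The other read 112, 124 and 134 in LF and 329.9, 1078 and 292 in LF+CR. LF+CR 2 was the highest liver at all 3 probe sets. Their interactions were -1.95 (limma adjusted p = 0.0447) and -2.22 (limma adjusted p = 0.0293).

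**Figure D2:**
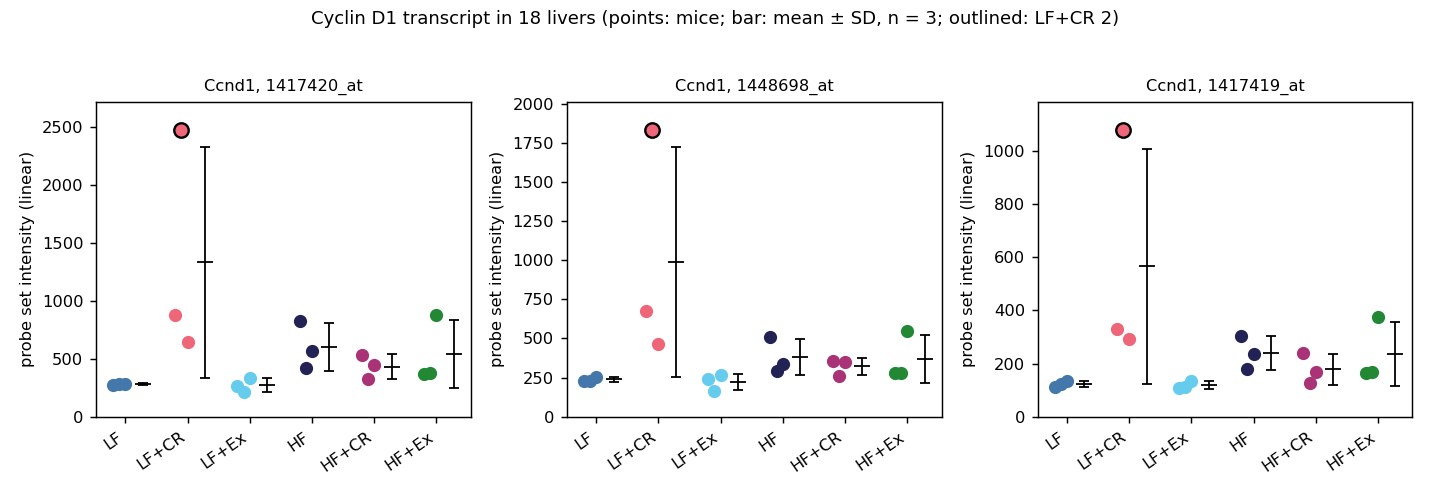
Linear intensity of the 3 Ccnd1 probe sets in each of 6 groups, with points for livers, bars for mean ± SD (n = 3) and LF+CR 2 outlined. At the left probe set the LF+CR livers lie from 648 to 2469.8 and the LF livers from 273 to 286.

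Among the helicase genes Mcm3 alone passed a test. Mcm3 at 1426653_at read 148, 166 and 155 in LF+CR and 124, 119.5 and 126 in LF+Ex, without overlap. The means were 157 ± 8.90 and 123 ± 3.21 (SD, n = 3 each), a log2 difference of 0.31 (SE 0.0618, limma adjusted p = 0.00468). It passed in all 33 other settings, with log2 differences from 0.20 to 0.36. In LF the livers read 140.1, 128 and 138, also below all of LF+CR, but the log2 difference of 0.19 (SE 0.0618, 95% interval 0.06 to 0.32) did not pass (limma adjusted p = 0.0875). In HF+CR they read 142, 135 and 122, lower than in LF+CR (log2 difference -0.21, SE 0.0618, limma adjusted p = 0.0400). That call held in 19 of 33 other settings, and without LF+CR 2 the value was -0.18 (limma adjusted p = 0.157).

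The remaining probe sets of Mcm3 are dimmer, and 1426652_at, above the dim limit on 0 arrays, was not tested. In LF+CR against LF+Ex none of the other 3 passed over all probe sets (log2 differences 0.17, 0.09 and 0.32, limma adjusted p = 0.235, 0.454 and 0.0601). The brightest of them, 1449705_x_at, was above the dim limit on all 18 arrays and gave -0.03 for HF+CR against LF+CR (limma adjusted p = 0.849) and an interaction of restriction and diet of -0.01 (limma adjusted p = 0.976). At 1420028_s_at, LF+CR read 92.9, 126 and 89 against 74.2, 80.7 and 78.2 in LF, and HF+CR read 79.5, 78.7 and 86.4 against 107, 86.2 and 95.2 in HF. Its interaction of restriction and diet was -0.53 (SE 0.142, limma adjusted p = 0.0435 over all probe sets), while that of 1426653_at was -0.23 (SE 0.0873, limma adjusted p = 0.130). At 1420029_at, LF+CR read 88.5, 87.2 and 94.1 and overlapped LF at 95.6, 104 and 89.4, with an interaction of the opposite sign (0.21, limma adjusted p = 0.200).

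Mcm6 and Mcm5 were by far the highest in a single liver, LF+CR 2. Mcm6 at 1416251_at read 114, 361 and 109 in LF+CR against 94.4, 93.3 and 89.1 in LF, so that LF+CR 2 was more than 3 times either of its group mates. The log2 difference was 0.76 (SE 0.300, 95% interval 0.12 to 1.39, limma adjusted p = 0.175) and fell to 0.23 without that liver (limma adjusted p = 0.594). Mcm5 at 1415945_at read 100.02, 155 and 100.1 in LF+CR against 87.7, 97.8 and 85.8 in LF, again without overlap. Its log2 difference was 0.31 (SE 0.110, 95% interval 0.08 to 0.54, limma adjusted p = 0.120), and 0.13 without LF+CR 2 (limma adjusted p = 0.398). In HF+CR the Mcm5 livers were close together, at 110.04, 109 and 109, and above the HF livers at 102, 91.1 and 97. That difference was 0.15 (SE 0.110, 95% interval -0.08 to 0.39, limma adjusted p = 0.387). Averaged over both diets, the Mcm5 difference with restriction was 0.23 (SE 0.0774, 95% interval 0.07 to 0.40, limma adjusted p = 0.103). The LF values of both genes lay near or under the dim limit, and so bound their fold changes.

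Mcm2, Mcm4 and Mcm7 passed in no comparison. Mcm2 at 1434079_s_at read 236, 280.5 and 233 in LF+CR, 234, 238 and 183 in LF and 226, 179 and 178 in LF+Ex. LF+CR exceeded LF+Ex by 0.34 (SE 0.112, 95% interval 0.10 to 0.58, limma adjusted p = 0.0697), and the livers of these groups did not overlap. Without LF 3 or without LF+Ex 1 that difference passed (limma adjusted p = 0.0468 and 0.0338). Mcm4 at 1416214_at read 136, 165 and 122 in LF+CR against 134, 140.2 and 121 in LF, a difference of 0.08 (SE 0.0875, 95% interval -0.11 to 0.27, limma adjusted p = 0.719). Mcm7 at 1438320_s_at read 259, 350.4 and 229 in LF+CR against 333, 249 and 262 in LF, a difference of -0.02 (SE 0.139, 95% interval -0.32 to 0.27, limma adjusted p = 0.968). At these probe sets LF+CR 2 was the highest of the 18 livers for all 3 genes. It was also highest at 1436708_x_at of Mcm4 and at 1416031_s_at and 1439269_x_at of Mcm7. At 1448777_at of Mcm2 the highest was HF 1 (120 against 113 in LF+CR 2), and at 1416030_a_at of Mcm7 HF+CR 3 (193 against 174).

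**Figure D3:**
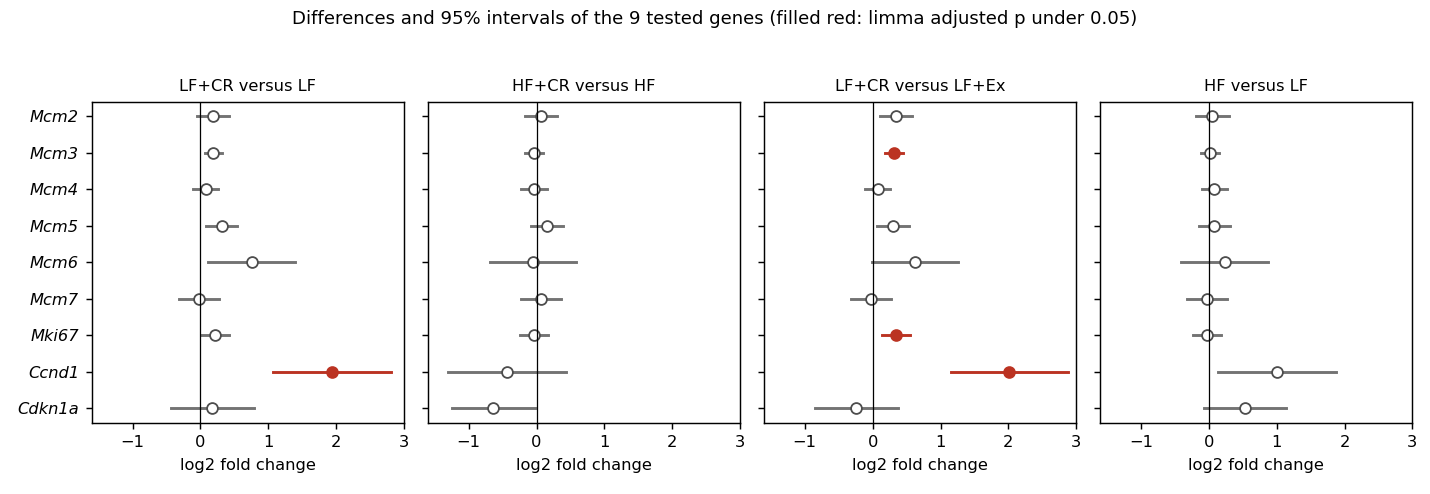
Log2 fold changes of the 9 tested members (points) with 95% intervals (lines) in 4 comparisons, filled red where the limma adjusted p is under 0.05. Ccnd1 is filled in LF+CR versus LF (1.94), Mcm3, Mki67 and Ccnd1 are filled in LF+CR versus LF+Ex (0.31, 0.35 and 2.01), and no gene is filled on the high-fat diet or in HF versus LF.

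Mki67, the marker of cycling cells, was higher in restricted than in running mice of the low-fat diet. At its only probe set it read 141, 167 and 142 in LF+CR, 117, 135 and 129 in LF and 112, 120.2 and 109.8 in LF+Ex, so that LF+CR overlapped neither. The means were 150 ± 14.6, 127 ± 9.45 and 114 ± 5.54 (SD, n = 3 each). LF+CR exceeded LF+Ex by 0.35 (SE 0.0970, 95% interval 0.14 to 0.56, limma adjusted p = 0.0329), which passed in 24 of 33 other settings. It was lost without LF+CR 2 (0.28, limma adjusted p = 0.131), without LF+CR 1 (0.39, 0.0511), and without LF+Ex 1 (0.34, 0.0977), LF+Ex 2 (0.38, 0.0507) or LF+Ex 3 (0.33, 0.103), each with the limma adjusted p second. It was also lost in the fit of these groups alone and with the replicate number as a block. The same held without the arrays with pancreatic transcripts, and without the 3 arrays farthest out on the first component. Over all settings the highest limma adjusted p was 0.157. LF+CR exceeded LF by 0.21 (SE 0.0970, 95% interval 0.01 to 0.42, limma adjusted p = 0.254). On the high-fat diet Mki67 read 116, 118 and 140.1 in HF, 140.1, 102 and 122 in HF+CR and 125, 119 and 134 in HF+Ex, and the 3 groups overlapped.

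Top2a was near background almost everywhere. Its probe sets 1442454_at and 1427724_at were between 67 and 91.7 on all arrays. The third, 1454694_a_at, read 65.2, 158 and 66.5 in LF+CR, 99.7, 65.3 and 78.5 in HF and 67, 66.6 and 66.7 in LF. Only LF+CR 2 and HF 1 exceeded the dim limit of their array at this probe set, fewer than the 3 arrays that a test required. The gene was not tested because its probe set of highest mean, 1442454_at, exceeded that limit on 0 arrays.

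Cdkn1a, which encodes p21, varied widely between mice of a group. At 1424638_at it read 143, 125 and 121 in LF, 119, 219 and 124 in LF+CR and 131, 197 and 218 in LF+Ex. On the high-fat diet it read 257, 132 and 214 in HF, 119, 123 and 116 in HF+CR and 132, 136 and 305 in HF+Ex. The HF+CR livers were all below all HF livers and were close together (119 ± 3.72 against 201 ± 63.2, SD, n = 3 each). Their log2 difference of -0.64 (SE 0.287, 95% interval -1.24 to -0.03) did not pass (limma adjusted p = 0.179). HF exceeded LF by 0.53 (SE 0.287, 95% interval -0.08 to 1.14, limma adjusted p = 0.369), with overlap. LF+Ex exceeded LF by 0.42 (SE 0.287, 95% interval -0.19 to 1.03, limma adjusted p = 1.00), also with overlap. The high livers were HF+Ex 3, HF 1, LF+CR 2, LF+Ex 3, HF 3 and LF+Ex 2, in that order, and the first 3 are those farthest out on the first principal component. Their summed intensities of 10 Kupffer cell markers were 10949, 11981 and 13207 and of 9 stellate cell markers 9466, 7656 and 7630. The next 3 livers had Kupffer sums of 7774, 7846 and 6480, while HF 2 had 11657 with Cdkn1a at 132. In HF+CR the Kupffer sums were 6076 to 7256, and all 10 markers had lower fitted values than in HF (median log2 difference -0.67), of which limma called 0 and 7 had an unadjusted p under 0.05. The part of these cells in the Cdkn1a values was not tested. The second probe set, 1421679_a_at, ranged from 82.2 to 108, close to the dim limit.

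**Figure D4:**
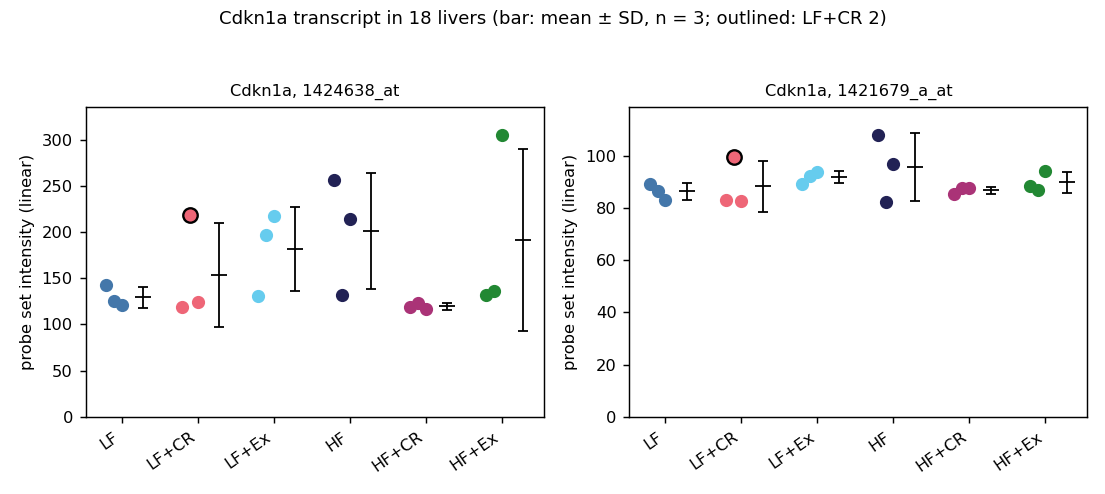
Linear intensity of the 2 Cdkn1a probe sets in each of 6 groups, with points for livers, bars for mean ± SD (n = 3) and LF+CR 2 outlined. At the left probe set the HF+CR livers lie from 116 to 123, and single livers of other groups reach 305.

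LF+CR 2 stood apart within its group in nearly every member. By the probe set of highest mean of each gene, it was the highest of the 18 livers for 8 of the 10 genes (80%). The exceptions were Cdkn1a and Top2a, and the share over all 18193 genes was 10.2%. Its log2 excess over the mean of the other LF+CR livers was 1.69 for Ccnd1, 1.57 for Mcm6, 0.77 for Cdkn1a, 0.56 for Mcm5 and 0.50 for Mcm7. For Mcm4, Mcm2, Mki67 and Mcm3 it was 0.32, 0.24, 0.21 and 0.12. Of the 33 measured mitosis genes it was highest for 17 (51.5%), of the 29 measured genes of the replication fork and nucleotide supply for 8 (27.6%), and of the 20 licensing genes beside the members for 6 (30%). It was highest for 2 of 22 G1 genes (9.09%) and for 3 of 23 inhibitors and p53 targets (13%).

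Single genes of these lists, chosen after their values were seen, show the size of that difference. Cdk1, the mitotic kinase, read 107, 366 and 103 in LF+CR, and from 90.8 to 144 in the other groups. Rrm2, the regulated subunit of ribonucleotide reductase, read 178, 352 and 139.5 in LF+CR. Ccnb2, a mitotic cyclin, read 74.3, 167 and 65.5. Mcm10 went the other way and was lower in LF+CR 2, at 313, than in LF+CR 1 and LF+CR 3, at 672 and 695.

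Markers of another cell type moved with this liver. LF+CR 2 was the highest of the 18 for 5 of the 10 Kupffer cell markers, the resident macrophages of the liver, and their summed intensity was 13207, the top of an LF+CR range of 7452 to 13207. The sums ranged from 6237 to 10366 in LF, 6480 to 8307 in LF+Ex, 7846 to 11981 in HF, 6076 to 7256 in HF+CR and 6145 to 10949 in HF+Ex. Its sum of 7 T and NK cell markers was also the highest, at 1188 against 855 to 1021 outside LF+CR. Its stellate cell marker sum was 7630 against 5315 and 5396 in LF+CR 1 and LF+CR 3, and its cholangiocyte sum 816 against 546 and 551. Other groups reached higher sums, 9466 for stellate markers in HF+Ex 3 and 1093 for cholangiocyte markers in HF+CR 1. Its B cell and erythroid sums were the highest of LF+CR, at 732 and 1646. Its sinusoidal endothelial sum was the lowest of LF+CR (4928 against 5143 and 5256). Its neutrophil sum of 731 lay between those of its group mates (695 and 798). Its hepatocyte marker sum was the lowest of the LF+CR range of 103703 to 108208. It was above all livers of LF (up to 101808), LF+Ex (102357), HF (100473) and HF+Ex (98829), and HF+CR reached 103895. The 3' to 5' ratios of Gapdh (1.04) and Actb (1.68) were within the ranges of the other arrays (1.02 to 1.23 and 1.55 to 2.20). The part of these cells in the results was not tested. In whole tissue, more cells of a type and more RNA per cell cannot be told apart.

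**Figure D5:**
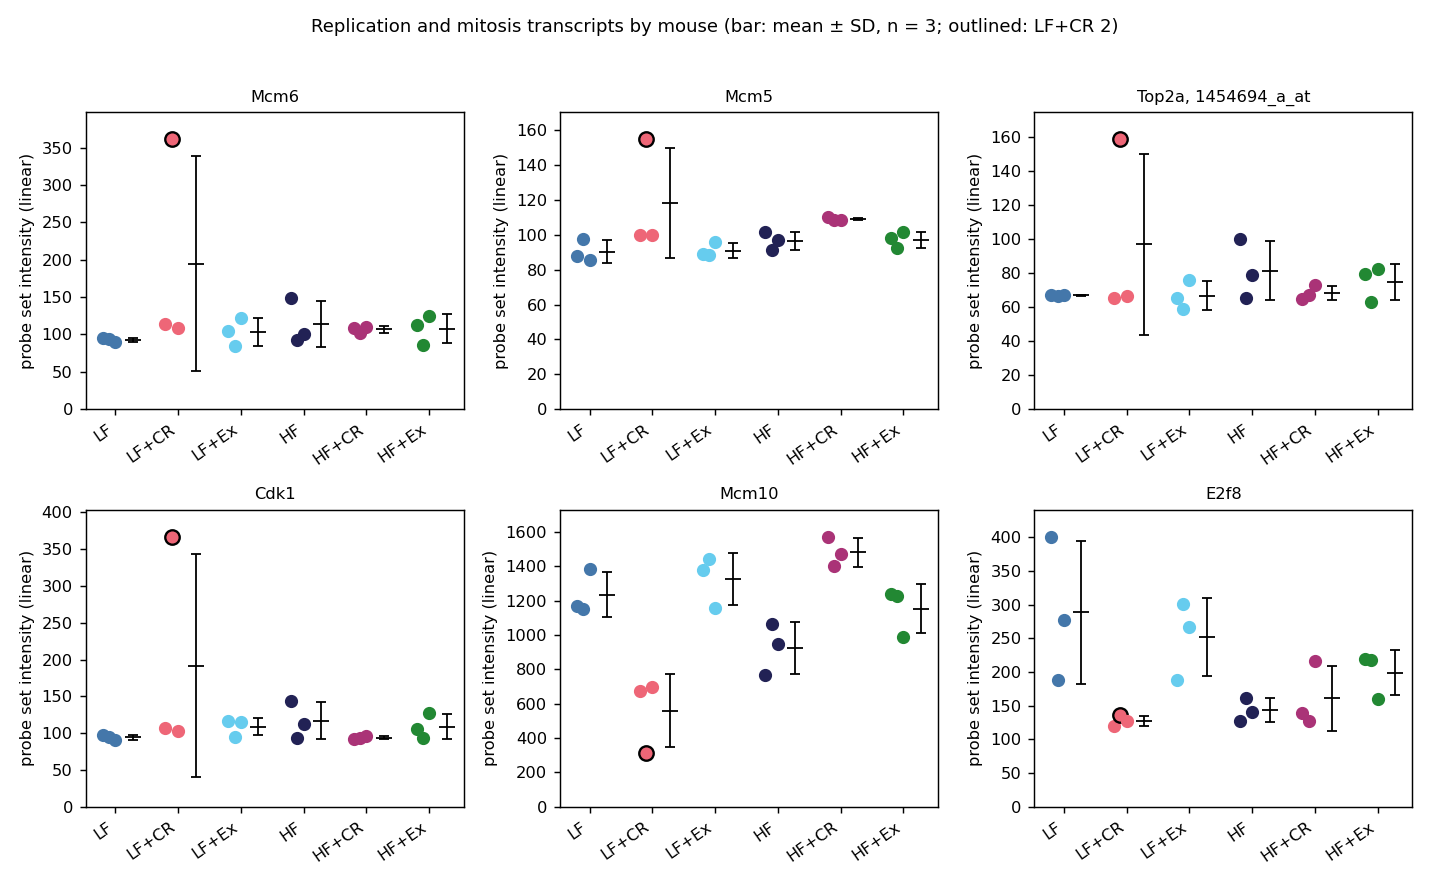
Linear intensity of Mcm6, Mcm5, 1 probe set of Top2a, Cdk1, Mcm10 and E2f8 in each of 6 groups, with points for livers, bars for mean ± SD (n = 3) and LF+CR 2 outlined. LF+CR 2 stands above every other liver for Mcm6 (361), Mcm5 (155), Top2a (158) and Cdk1 (366) and below them for Mcm10 (313).

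The other genes of licensing and helicase loading were mostly called in no comparison. Of 20 listed genes 17 were tested, and in LF+CR against LF 0 rose and 1 fell, while 5.57% of all genes tested were called in either direction. Mcm10, which helps the loaded helicase to start unwinding, read 1171, 1152 and 1384 in LF and 672, 313 and 695 in LF+CR. The means were 1235 ± 129 and 560.1 ± 214 (SD, n = 3 each), a log2 difference of -1.20 (SE 0.218, limma adjusted p = 0.00408). On the high-fat diet it read 765, 1065 and 947 in HF and 1570.1, 1401 and 1473 in HF+CR. The interaction of restriction and diet was 1.88 (SE 0.309, limma adjusted p = 0.00237) and passed in all 33 other settings, from 0.82 to 2.08. Mcm10 was also lower in LF+CR than in LF+Ex (-1.30, limma adjusted p = 0.00148) and higher in HF+CR than in LF+CR (1.46, limma adjusted p = 7.7e-04). The second Mcm10 probe set, 1433407_at, moved in the same direction by less, with -0.35 for LF+CR against LF (limma adjusted p = 0.0195) and an interaction of 0.58 (limma adjusted p = 0.0103). The summed intensity of 6 erythroid precursor markers, a cell type that cycles, was 1381 to 1646 in LF+CR and 1674 to 2467 in the other groups, and its part in the Mcm10 values was not tested. That low sum was carried by Alas2, the heme synthesis enzyme of red cell precursors, which read 375 to 456 in LF+CR and 815 to 995 in LF (log2 difference -1.10, limma adjusted p = 9.1e-06). The other 4 of the 5 tested markers had positive log2 differences and did not pass, and the median of the 5 was 0.10. Gmnn, which encodes geminin, the inhibitor of licensing, rose in LF+CR over LF+Ex by 0.46 (SE 0.103, limma adjusted p = 0.0104).

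Of 25 tested genes of the replication fork and nucleotide supply (31 listed), 2 rose in LF+CR over LF and 0 fell. Among all genes tested, 2.3% rose there and 5.57% were called in either direction. Rrm1, the large subunit of ribonucleotide reductase, rose by 0.33 (SE 0.0696, limma adjusted p = 0.00952), reading 229.5, 234 and 214 in LF and 289, 304 and 275 in LF+CR. Its other probe set, 1448127_at, gave 0.36 (limma adjusted p = 0.0620). Pold2, a subunit of DNA polymerase delta, rose by 0.28 (SE 0.0752, limma adjusted p = 0.0426), a call that held in 15 of 33 other settings. Pold2 also rose in HF+CR over HF (0.32, limma adjusted p = 0.0205), and its mean effect of restriction over both diets was 0.30 (SE 0.0532, limma adjusted p = 0.00379), called in all 33 other settings. It read 155, 175 and 171 in LF, 213, 199.9 and 203 in LF+CR, 181, 212 and 179.7 in HF and 226, 248 and 253 in HF+CR. Over both diets Rpa3, of the single-strand binding complex, rose by 0.24 (limma adjusted p = 0.0361) and Rrm1 by 0.19 (limma adjusted p = 0.0364), calls that held in 21 and 19 of 33 other settings. Against running, Rpa3, Pold2 and Rrm1 were higher in LF+CR by 0.42, 0.42 and 0.37 (limma adjusted p = 0.00528, 0.00248 and 0.00304), and Pold2 was higher in HF+CR by 0.32 (limma adjusted p = 0.0322). Fen1, the flap endonuclease, rose in HF+CR over HF by 0.39 (SE 0.106, limma adjusted p = 0.0431) and was higher in HF+CR than in LF+CR by 0.39 (limma adjusted p = 0.0299), while Rrm1 was lower there (-0.24, limma adjusted p = 0.0384). The interaction for Fen1 was 0.61 (limma adjusted p = 0.0266). These 3 Fen1 calls held in 19, 25 and 25 of 33 other settings, and the other Fen1 probe set, 1421731_a_at, gave 0.00, -0.14 and -0.22 (limma adjusted p = 0.998, 0.328 and 0.282).

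None of 19 tested mitosis genes (34 listed) passed in any comparison by limma, where 0% to 9.31% of all genes tested were called. In LF+CR against LF, 2 of them had an unadjusted p under 0.05, in LF+CR against LF+Ex 4, and in HF+CR against HF 4, against 18.6%, 23.7% and 25.5% of all genes tested. The median log2 difference of the tested members in LF+CR against LF was 0.19. It was 0.03 for the licensing genes beside them, 0.10 for the fork genes and -0.01 for all genes tested. For the mitosis genes it was 0.09, with 16 of 19 positive. Against LF+Ex the mitosis median was 0.14, with 18 positive, and that of all genes 0.01. In HF+CR against HF these were 0.10, with 14 positive, and 0.04.

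Of 20 tested G1 genes (22 listed), E2f8, an atypical E2F that represses its targets, fell in LF+CR against LF (log2 difference -1.03, SE 0.230, limma adjusted p = 0.0151). It read 400.2, 187 and 277 in LF and 119.7, 135 and 127 in LF+CR. That call held in 29 of 33 other settings, with limma adjusted p up to 0.207. Among the losses, the value was -0.77 without LF 1 (limma adjusted p = 0.0666) and -0.99 without LF+CR 1 (limma adjusted p = 0.0579). E2f8 was also lower in LF+CR than in LF+Ex (-0.88, limma adjusted p = 0.0246), a call that held in 26 of 33 other settings. Its interaction of 1.15 (limma adjusted p = 0.0491) passed in 8 of 33 other settings. Ccnd2, cyclin D2, was higher in LF+CR than in LF+Ex by 0.20 (limma adjusted p = 0.0491), a call that held in 9 of 33 other settings. None of its other 4 probe sets passed (limma adjusted p from 0.123 to 0.461), and 1448229_s_at gave -0.11. Cdc25a, a phosphatase that activates cyclin-dependent kinases, rose in HF+CR over HF by 0.39 (SE 0.0949, limma adjusted p = 0.0263), and by 0.12 at its other probe set (limma adjusted p = 0.282). The Cdc25a call held in 25 of 33 other settings.

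Of 21 tested inhibitors and p53 targets (25 listed), 1 rose and 1 fell in HF+CR against HF, where 6.07% of all genes tested were called. Bbc3, which encodes the pro-apoptotic protein PUMA, rose by 0.35 (SE 0.0731, limma adjusted p = 0.0123), reading 259.8, 263 and 263 in HF and 369, 329 and 316 in HF+CR. Cdkn1c, which encodes the cyclin-dependent kinase inhibitor p57, fell (log2 difference -0.23, SE 0.0579, limma adjusted p = 0.0323). Cdkn1c read 116, 125 and 137 in HF, 103, 104 and 109 in HF+CR, 109, 116 and 111 in LF and 129, 129 and 123 in LF+CR. Its effect of restriction differed between the diets, with an interaction of -0.39 (SE 0.0819, limma adjusted p = 0.0124), and HF+CR was lower than LF+CR (-0.24, limma adjusted p = 0.0179). Against HF+Ex, HF+CR was higher for Bbc3 (0.31, limma adjusted p = 0.0337) and lower for Cdkn1c (-0.25, limma adjusted p = 0.0298), calls that held in 25 of 33 and 24 of 32 other settings. Perp, a p53 target, was lower in LF+CR than in LF+Ex (-0.23, limma adjusted p = 0.0301), a call that held in 23 of 33 other settings. Of the 5 lists together, no gene was called in HF against LF or for running on either diet. Over all genes tested, 0.894% were called in HF against LF, and 0.00704% and 0% for running on the low-fat and high-fat diet. With shares this low, the lack of calls does not set these lists apart. For HF against LF the unadjusted p was under 0.05 for 0 licensing, 6 fork, 0 mitosis, 2 G1 and 5 inhibitor or p53 genes, and for 16.3% of all genes tested.

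The genes whose pattern over the 18 livers was most like that of a member were taken by Pearson correlation of log2 values, and the livers share their groups. For Ccnd1 these were Mdh2 (mitochondrial malate dehydrogenase, r = 0.955), Gstm3 (a glutathione transferase, r = 0.951) and Arf1 (a small GTPase of vesicle coating, r = 0.945), with Spearman's rho of 0.856, 0.835 and 0.886. Without the 2 livers farthest from the median of Ccnd1, r was 0.906, 0.897 and 0.876. For the mean of the 6 helicase genes they were Cenpa (the centromeric histone, r = 0.933), Tnf (r = 0.928) and Cyp3a44 (r = 0.912), falling to 0.772, 0.709 and 0.712. For Cdkn1a they were Sptan1 (r = 0.887) and Sptbn1 (r = 0.874), subunits of spectrin, and the immediate early gene Ier5 (r = 0.887), with 0.780, 0.740 and 0.789 without the 2 farthest livers. Among the members, Mcm5 and Mcm6 were most alike (r = 0.883), but r was 0.546 without LF+CR 2. Mcm6 and Ccnd1 had r = 0.841, and 0.688 without that liver. These correlations describe 18 livers, 1 of which holds the highest value of most members.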

How the data were processed

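The authors deposited linear intensities per probe set of 18 arrays, 1 mouse each. The labels name Trizol extraction and biotinylated cRNA. How probe sets were summarised and normalized is not given in the sources used here. Log2 medians of the arrays spanned 0.152, so the deposited intensity values were used as they are, as log2(intensity + 16).

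Of 45101 probe sets, 64 controls were left out, and 34945 carried 1 symbol, 932 several and 9160 none. A gene was its probe set of highest mean over the 18 arrays, tested if above the 40th percentile of an array on at least 3 arrays (14201 genes, 3992 removed). limma 3.58.1 in R 4.3.3 was fitted with 1 mean per group (12 residual and 3.64 prior degrees of freedom), with Benjamini-Hochberg adjustment over all genes tested and a threshold of 0.05. A fold change is on the scale of log2(intensity + 16), and SE is moderated. The fit was tested on simulated data. Probe sets ending in _s_at or _x_at can share sequence with other genes.

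The members, 5 pathway lists (132 genes), 10 marker lists and settings were chosen with earlier results of these data known. Beyond the members, up to 4 called genes per list and comparison are named by size of change, and the 3 genes most correlated with Ccnd1, with Cdkn1a and with the mean of the helicase genes. Promoters came from RefSeq (GRCm38.p6). Alternatives were quantile normalization, median centring, offsets of 1 and 64, a filter at the 60th percentile or none, gene means over probe sets, every probe set, a trended robust variance, array weights, the compared groups alone, a replicate block, the clock covariate, and arrays left out.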

Additional observations from a re-analysis of the deposited data

Results flagged for a closer look

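The effect of calorie restriction differed between the diets for 5 genes named here, by the interaction of restriction and diet in the limma fit, given as the log2 effect on the high-fat diet minus that on the low-fat diet. It was -2.38 for Ccnd1 and 1.88 for Mcm10. It was 0.61 for Fen1, whose other probe set gave -0.22. It was 1.15 for E2f8, a call that held in 8 of 33 other settings, and -0.39 for Cdkn1c. By list, the interaction was called for 1 of 9 tested members, 1 of 17 licensing, 1 of 25 fork, 0 of 19 mitosis, 1 of 20 G1 and 1 of 21 inhibitor or p53 genes. Over all genes tested, 5.75% had such a difference. Genes of the lists are named because they were called in a comparison, this one included, so the 5 do not set these lists apart. A test for a single outlying liver within a group was not run, because each group holds 3 livers.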

How the results depend on the processing

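For HF against LF, HF+CR against HF, HF+CR against HF+Ex and the 4 comparisons of running with free feeding (on each diet, over both, and by diet), 0 members were called in all 33 other settings. LF+CR against LF (1 member) gave 0 with the compared groups alone or without the arrays with pancreatic transcripts, and 1 to 2 with single arrays left out. LF+CR against LF+Ex (3) gave 1 with the compared groups alone, 2 with the replicate block, without the arrays with pancreatic transcripts or without the 3 arrays farthest out on the first component, 4 with the clock covariate (Mcm5 added) and 2 to 4 with single arrays left out. HF+CR against LF+CR (2) depended most on the setting. It gave 1 with median centring, with no filter, with the mean of a gene's probe sets, with a trended robust variance or without the 3 arrays farthest out. It gave 3 with quantile normalization or array weights (Mki67 added), 0 with the compared groups alone, with the replicate block or without the arrays with pancreatic transcripts, and 0 to 2 with single arrays left out. Restriction over both diets (0) gave 1 with array weights (Mcm5) and 1 without the 3 arrays farthest out (Ccnd1). Its interaction with diet (1) gave 2 with every probe set, 0 without the arrays with pancreatic transcripts and 0 to 1 with single arrays left out. Fewer arrays or groups leave fewer residual degrees of freedom; beyond that the cause was not tested.

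Replicate numbers are not said to pair the livers. Of 24 pairs with the same number, 3 had deviations correlated over 0.1 (range -0.36 to 0.29). Pairs with different numbers were not set beside them, so these values cannot decide on pairing. The replicate block also ended the call of Mki67 for LF+CR against LF+Ex (limma adjusted p = 0.0543). Of single log2 fold changes, 4278 kept their side of the threshold, 271 lost and 10 gained a call, and 0 changed sign with a call in either setting. A change of sign without a call in either setting was counted among the 4278. Of list counts, 1717 stayed within 1.5 times and 263 moved. Signal over background limits Top2a, Mcm5 and Mcm6.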
